A study of Mus musculus with 221 samples.

Results

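Signalling by bone morphogenetic proteins (BMP) and transforming growth factor beta (TGF-beta) was followed through 10 genes in single mouse cells along the endothelial-to-hematopoietic transition. The 10 genes, taken by their symbols, were the receptor genes Eng, Acvrl1 and Bmpr2, the signal-transducing SMAD genes Smad1 and Smad5, the inhibitory SMAD genes Smad6 and Smad7, and the target genes Id1, Id2 and Id3. They are 10 of 78001 gene symbols in the tables and hold 46 of 278369 annotated transcripts. Of the 10 genes, 7 reached 100 summed counts in the cells analysed, as did 8457 genes in all. Smad7 (91 counts), Smad1 (47 counts) and Bmpr2 (1 count) did not.

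The cells were hemogenic endothelium (HE), the endothelium that gives rise to blood, and early progenitors from the aorta-gonad-mesonephros region (AGM) and yolk sac (YS) of embryos carrying a Gfi1-GFP or Runx1b-RFP reporter, on C57BL/6JOlaHsd crossed with Hsd:ICR CD-1 females, without any treatment. AGM HE had been sorted as RUNX1+, KIT-, CDH5+, GFI1+/-, CD41-, CD45- and YS HE as RUNX1+, KIT+, GFI1+/-, CD31+, CD41-, CD45-, so the sort gate, the cDNA project and the tissue cannot be told apart. The clusters were early (c3, 29 cells) and late (c4, 20 cells) HE-AGM, AGM cells labelled HE-Hb (c5, 21 cells), early (a1, 23 cells) and late (a2, 29 cells) HE-YSA, early (b2, 25 cells) and late (b3, 24 cells) HE-YSP, and the YS progenitors p1 (LMP skewed, 17 cells) and p2 (EMP skewed, 20 cells). YS cells carried stage labels of E9.0 to E10.5, except 1 cell of a1 without a stage, and the labels gave a stage for 1 of the AGM cells used. In the YS, the sort label was Gfi1 for 18 cells and Runx1 for 4 in a1, and 29 and 0 in a2. These were 3 and 22 in b2, 10 and 14 in b3, 5 and 12 in p1, and 2 and 18 in p2. Reporter sort and cluster are thus partly confounded among the YS clusters, and their parts were not tested. Smart-seq2 cDNA of these cells was read again as long nanopore reads, and 208 cells passed the library-size limit. No embryo is named for a cell, so each cluster counts as 1 sample. The differences below therefore have no replicate check and no test, and intervals, 95% throughout, cover counting error only. Values within each of the 3 nanopore runs, over which every cluster was divided, stand beside them as a technical split.

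BMP9, BMP10 and other ligands bind the type I receptor ALK1 (Acvrl1) and the type II receptor BMPR2 on endothelium, with endoglin (Eng) as a co-receptor. The receptors phosphorylate SMAD1 and SMAD5, which enter the nucleus and switch on Id1, Id2 and Id3, and also Smad6 and Smad7, whose products restrain the pathway. ID proteins lack a DNA-binding domain and hold E proteins and other basic helix-loop-helix (bHLH) factors away from DNA. In embryonic endothelium the pathway is known for arterial and vessel development and for its role around blood emergence from the aorta.

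Library depth and the labels were compared first. Totals ran from 30323 to 125339 estimated counts per cell in HE-AGM and from 18131 to 84052 in the YS HE clusters. Levels are the summed counts of a cluster as CPM, scaled to 1e6 counts. Of 7 endothelial marker genes all were detected in 8 of the 9 clusters, and 6 in p2. Their summed level went from 2309 CPM in c3 to 1112 in c4 and 378 in c5, from 1761 in a1 to 986 in a2 and 521 in p1, and from 1857 in b2 to 945 in b3 and 389 in p2. Vwf, an arterial endothelial gene, was at 504 CPM in c3 and 246 in a1 against 3.53 in b2, while Lyve1, a marker of the yolk sac plexus endothelium, was at 911 CPM in b2 against 33.3 in a1. Markers of yolk-sac endoderm were at or near 0 in all clusters (at most 9.75 CPM over 5 genes), and the hemoglobin genes together reached 11626 CPM in 1 cell of c3. Of 6 mesenchymal genes Dlk1 alone stood out, at 172 CPM in c5 and at most 16.4 elsewhere. The HE reporter genes Runx1, Gfi1 and Kit together ran from 71.0 CPM in p2 to 467 in c4. In b2 they were at 77.6 CPM, with 1 Runx1 count and 14 of 25 cells without any of the 3 genes. Macrophage markers ran from 32.1 CPM in a1 to 186 in p1, with Mrc1 at 108 CPM in b2. Megakaryocyte markers ran from 2.16 CPM in c4 to 54.1 in b2. In the library name or project, 3 YS cells disagreed with their label, 2 in a1 and 1 in a2, and without them 1 call past 2-fold was lost, Acvrl1 in p1 over a2, where the number of such members went from 6 to 5.

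Eng, which encodes the endothelial co-receptor endoglin, was high in early HE of all 3 lines and, in the HE-YSA line, also in late HE. Its level was 207 CPM (188 to 229) in c3, 132 (113 to 152) in c4 and 55.6 (44.4 to 68.9) in c5. In the YS it was 211 CPM (181 to 244) in a1, 209 (183 to 239) in a2 and 76.2 (56.5 to 100.4) in p1, and 183 (156 to 214) in b2, 121 (98.0 to 147) in b3 and 39.6 (26.5 to 56.9) in p2. The median cell was at 183, 119 and 36.1 CPM in c3, c4 and c5, and at 205.7, 160 and 0 CPM in a1, a2 and p1. The highest single cell, in c3, held 788 CPM. In order of level, a1, a2, c3 and b2 did not differ beyond their intervals, c4 and b3 followed, and p1, c5 and p2 were lowest. The interval of c4 lay below that of b2, although run values overlapped, and the intervals of all other neighbours overlapped. At least 1 Eng count was found in 26 of 29 cells of c3, 21 of 23 of a1 and 23 of 25 of b2, against 13 of 21 cells of c5, 7 of 17 of p1 and 9 of 20 of p2. Thinned to 15000 counts per cell, the expected shares were 80.2%, 83.1% and 82.4% in the early clusters and 42.5%, 34.97% and 35.8% in c5, p1 and p2.

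The Eng counts fell mainly on a transcript that reads into the last intron of the gene. Eng lies on chromosome 2, 32646595 to 32682669, on the forward strand of GRCm38. Transcript Eng-202 (3021 bases) keeps the last intron, 139 bases at chr2:32681298-32681436, and stops inside it, whereas Eng-201 (3422 bases) and Eng-205 (3403 bases) splice it out. Retention of this intron is known to give endoglin a short cytoplasmic tail. The coding ends, with the last 30 shared bases in lower case and the bases particular to each transcript up to and including the stop codon in capitals, show how the reading frames part. The sequences are from GENCODE M21 on GRCm38, forward strand, starting at position 32681268.
Eng-201: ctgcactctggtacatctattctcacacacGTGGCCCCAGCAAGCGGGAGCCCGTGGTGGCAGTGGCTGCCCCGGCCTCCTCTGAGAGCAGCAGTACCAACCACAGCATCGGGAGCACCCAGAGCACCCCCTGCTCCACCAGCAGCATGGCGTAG
Eng-202: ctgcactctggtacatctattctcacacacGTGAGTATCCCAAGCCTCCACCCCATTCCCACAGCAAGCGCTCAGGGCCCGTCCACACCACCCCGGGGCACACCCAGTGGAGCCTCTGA
After the junction the spliced form carries 125 bases with its stop codon and the intron-retaining form 89.

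Eng-202 held 1230 of the 1403 Eng counts (87.7%) over all cells used, while Eng-201 and Eng-205 together held 38.8. Among counts on these 3 full-length transcripts, the Eng-202 share was 95.1% (92.4 to 97.0) in c3, 93.4% (88.2 to 96.8) in c4, 98.9% (96.4 to 99.9) in a2 and 95.3% (90.2 to 98.0) in b2. No more than 2.03e-05 of an estimated count fell on the spliced forms in c5 (73 counts on Eng-202), a1 (152), b3 (94) or p2 (27). In HE-AGM the share was 94.6% (92.4 to 96.4), with 88.0%, 99.2% and 97.4% in runs 1, 2 and 3, against 99.4% (97.9 to 99.9) in HE-YSA and 97.2% (94.0 to 98.8) in HE-YSP. In c3 and c4 the share was likewise lowest in run 1, at 89.6% and 84.5%. Eng-202 also ends 540 bases before Eng-201, so a count on Eng-202 can reflect the 3' end as well as the intron, and the counts do not separate the pair of features. Of the short forms, the 258-base Eng-203 took 15.3% of Eng counts in c4, but 23 of its 28 counts there came from 1 cell, and the retained-intron fragment Eng-206 took 10.7% in c5, with 8 of 9 counts in 1 cell.

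**Figure D1:**
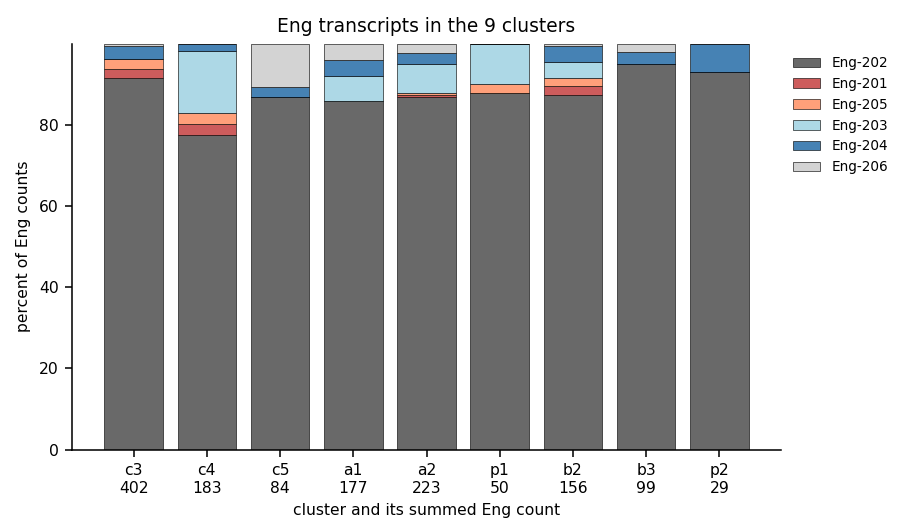
Share of the Eng counts on each annotated transcript (y axis, percent) in the 9 clusters (x axis, with the summed Eng count below each name). Eng-202 makes up most of every bar, from 77.6% in c4 to 94.9% in b3.

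Acvrl1, which encodes ALK1, was highest in the early HE clusters. It was at 59.3 CPM (49.0 to 71.2) in c3, 38.8 (26.7 to 54.5) in b2 and 24.98 (15.5 to 38.2) in a1. The late clusters held 8.63 CPM (4.46 to 15.1) in c4, 10.3 (5.16 to 18.5) in a2 and 6.09 (1.98 to 14.2) in b3. No Acvrl1 count was found in the 21 cells of c5 or the 17 cells of p1, which allows up to 1.99 and 4.57 CPM, and p2 held 3 counts, all in 1 cell. A count was present in 19 of 29 cells of c3, 11 of 25 of b2 and 7 of 23 of a1, against 4 of 20, 3 of 24 and 6 of 29 cells in c4, b3 and a2. In runs 1, 2 and 3 the levels were 78.9, 78.3 and 35.6 CPM in c3 and 36.9, 31.8 and 46.5 in b2, but 71.5, 8.64 and 0 in a1, so the a1 level came mostly from run 1. The 200 Acvrl1 counts were too widely shared between near-identical transcripts to resolve isoforms: 60% of them were on values that are not whole numbers, with Acvrl1-201 and Acvrl1-205 given 60 counts each. Bmpr2 encodes the type II receptor through a main transcript of 12899 bases and had 1 count, in a cell of a1, on a 4719-base retained-intron form. Over HE-AGM its upper limit was 0.901 CPM, and whether the length of the transcript limited its detection was not tested.

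Smad1 and Smad5 encode the receptor-activated SMADs of the BMP branch, and they were detected in few cells. Smad1 had 47 counts in 15 cells, with levels from 0 in p1 to 9.52 CPM (4.11 to 18.8) in a1, and all its clusters overlapped their neighbours in the order of levels. In b3 all 7 Smad1 counts came from 1 cell. Smad5 had 192 counts in 52 cells. It was at 36.7 CPM (27.3 to 48.2) in c4, 29.1 (19.8 to 41.3) in a2, 25.8 (18.4 to 35.3) in c5, 22.3 (13.4 to 34.9) in b2 and 17.5 (12.1 to 24.5) in c3, with at most 10.9 in the other clusters and no count in p1 (up to 4.57 CPM). A count was seen in 12 of 20 cells of c4 and 11 of 21 of c5, against 3 of 25 of b2 and 1 of 24 of b3. The Smad5 level was higher in c4 than in c3, by 2.09-fold (log2 1.06, 0.41 to 1.74), and in a2 than in a1, by 3.50-fold (log2 1.81, 0.59 to 3.23), and the late cluster was the higher in each run, though on few counts. In c3 run 1 had 0 counts, and a1 had 6, 1 and 0 counts in runs 1, 2 and 3 against 10, 11 and 10 in a2, with a run 1 log2 ratio of 0.07. The c4 over c3 ratio stayed past 2-fold in 6 of 11 alternatives, was below it with DESeq2 size factors and with TPM, and was lowest, at log2 0.26, with cells of 30000 to 60000 counts. In the b pair the order was opposite, at 3 counts in b3 against 19 in b2. On the isoform level Smad5-201 held 91.8% (83.8 to 96.6) of 85 HE-AGM counts, 71.1% (54.1 to 84.6) of 38 HE-YSA counts and 68.2% (45.1 to 86.1) of 22 HE-YSP counts. The HE-YSA counts on Smad5-203 came from 3 cells and the 5 in HE-YSP from 1 cell.

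Smad6 and Smad7 encode the inhibitory SMADs, which block the receptors and are themselves induced by the pathway, and both were highest in c3 and c4. Smad6 was at 47.5 CPM (38.3 to 58.2) in c3 and 32.4 (23.6 to 43.3) in c4, against 23.8 (14.5 to 36.7) in a1, 9.40 (4.06 to 18.5) in b2 and at most 3.97 elsewhere. The AGM cluster c5 was at 3.97 CPM (1.46 to 8.65), under a1. The intervals of c4 and a1 overlapped, and in run 1 c3 was below a1. In c3 the runs gave 7.89, 99.1 and 50.5 CPM, a wide spread, while a1 gave 26.3, 21.6 and 23.3. A Smad6 count was found in 12 of 29 cells of c3 and 11 of 20 of c4, in 5 of 23 of a1, and in 1 of 29 cells of a2. With thinning to 15000 counts per cell, the expected shares were 30.1%, 30.7%, 17.3% and 2.04% in the same order. In b2, 6 of 8 counts came from 1 cell. Smad7 was at 24.8 CPM (18.3 to 32.8) in c3, 12.9 (7.67 to 20.5) in c4 and 11.9 (7.07 to 18.8) in c5. In c4, 13 of the 18 counts came from 1 cell. It had 2 and 4 counts in a1 and a2, 1 in p1, and none in b2, b3 or p2. The 15 Smad7-positive HE-AGM cells were 30.6% (18.3 to 45.4) of 49, against 3 of 52 in HE-YSA and 0 of 49 in HE-YSP. Thinned to 15000 counts per cell the expected shares were 17.5%, 2.56% and 0%.

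Id3 encodes an inhibitor of bHLH factors and was highest in early HE, lower in late HE and lowest in c5, p1 and p2, in each of the 3 lines. Early HE held 595 CPM (561 to 630) in c3, 626 (573 to 682) in a1 and 534 (486 to 585) in b2. Late HE held 260 (234 to 289) in c4, 207 (180 to 236) in a2 and 283 (247 to 321) in b3, and c5, p1 and p2 held 21.2 (14.5 to 29.9), 47.2 (32.1 to 67.0) and 46.4 (32.2 to 64.9). The lowest early value in any run, 372 CPM in run 1 of c3, was above the highest late value, 310.1 CPM in run 3 of b3, and each late value was above each value of c5, p1 and p2, the highest of which was 87.0 CPM. The median cell went from 603 to 227 to 0 CPM in c3, c4 and c5, from 653 to 111 to 0 in a1, a2 and p1, and from 452 to 61.6 to 0 in b2, b3 and p2. Cells with at least 1 Id3 count were 28 of 29 in c3, 23 of 23 in a1 and 22 of 25 in b2, then 17 of 20, 17 of 29 and 15 of 24, then 4 of 21, 6 of 17 and 3 of 20. In c5, 26 of the 32 counts came from 1 cell. Late YS HE was mixed: in b3, 9 of 24 cells had no Id3 count, while the highest held 1476 CPM, above every cell of b2 (highest 1039 CPM). Id3-201 carried 99.7% of the Id3 counts.

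**Figure D2:**
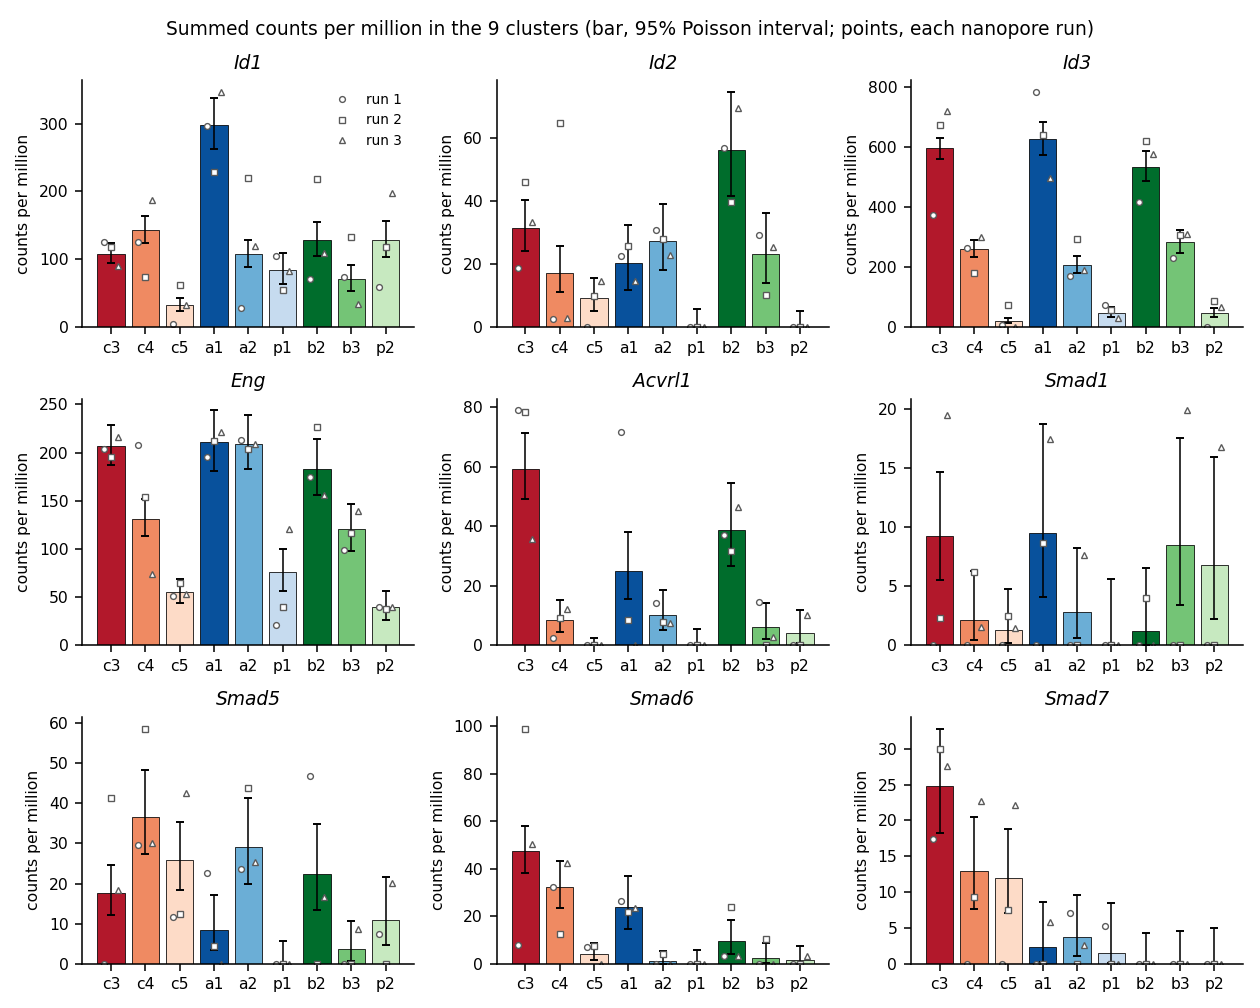
Summed CPM (y axes, linear from 0) of 9 of the 10 members in the 9 clusters (x axes), with 95% Poisson intervals as bars and the 3 nanopore runs as open points. Id3 steps down from early to late HE and again to c5, p1 and p2 in every line, Id1 is highest in a1 at 299 CPM, and Smad6 and Smad7 are highest in c3 at 47.5 and 24.8 CPM.

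Id1, the founding target of BMP signalling in endothelium, had another order of clusters. It was highest in a1, at 299 CPM (263 to 338), the only cluster that stood clear of the next in order by interval and by run. There 77 of 251 counts (30.7%) came from 1 cell, and runs gave 297, 229 and 347 CPM. The clusters c4 (143 CPM), p2 (128), b2 (128), c3 (108) and a2 (107), followed by p1 (83.8) and b3 (70.7), overlapped their neighbours, and c5 was lowest at 32.5 CPM (24.0 to 42.9). A count of Id1 was found in 10 of 17 cells of p1 and 15 of 20 of p2. Id2 had 212 counts in 42 cells. It was highest in b2, at 56.4 CPM (41.6 to 74.8), where 21 of 48 counts came from 1 cell, followed by c3 (31.5), a2 (27.2), b3 (23.1), a1 (20.2), c4 (17.3) and c5 (9.27). No Id2 count was found in p1 or p2, which allows up to 4.57 and 4.10 CPM. At least 1 of the 3 Id genes was counted in 28 of 29 cells of c3, 23 of 23 of a1 and 23 of 25 of b2. None of them was counted in 11 of 21 cells of c5, 5 of 17 of p1 and 5 of 20 of p2, although c5 had the second-highest median library size of the 9 clusters, 59726 counts against 55908 in c3 and 32130 in a1.

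**Figure D3:**
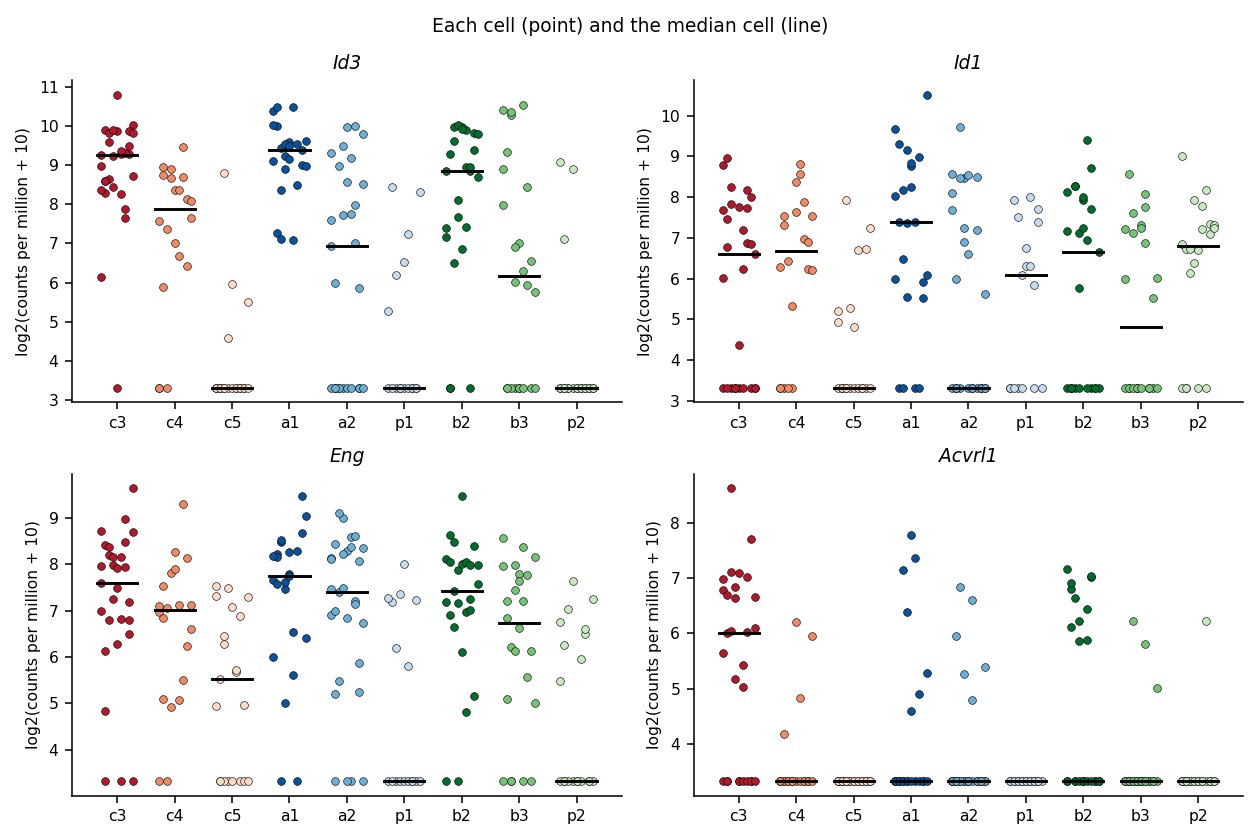
Each cell (point) and the median cell (line) for Id3, Id1, Eng and Acvrl1, on a scale of log2 of CPM plus 10 (y axes), by cluster (x axes). For Id3 the median line is at the bottom, 0 counts, in c5, p1 and p2, and 9 of 24 cells of b3 lie there as well.

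Promoter sequence was available for 7 of the 10 genes in the RefSeq table (GRCm38.p6), and 250 bases before each start were searched on both strands for GGCGCC, a GC-rich motif bound by SMAD1 and SMAD5, and for CAGACA, a SMAD-binding element. GGCGCC lay in 1 window each of Id2, Bmpr2 and Smad5, of 9 windows in all (3 of them for Smad5), against 9.59% of all 32851 promoter windows. All of these matches lay inside the annotated span of their gene. CAGACA lay in none of the 9 windows of the 7 genes, against 17.1% of all windows. The stretches below show windows of Id2, with the motif, and of Smad6 and Eng, without it, limited to bases outside the annotated exons. The Id2 stretch precedes the start in the RefSeq table but lies in the first intron of the longer transcript Id2-202. They are written in the direction of the gene, and capitals mark GGCGCC.
Id2, chr12:25096254-25096342, reverse strand: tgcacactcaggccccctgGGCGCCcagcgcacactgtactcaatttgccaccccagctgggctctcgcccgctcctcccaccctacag
Smad6, chr9:64022060-64022309, reverse strand: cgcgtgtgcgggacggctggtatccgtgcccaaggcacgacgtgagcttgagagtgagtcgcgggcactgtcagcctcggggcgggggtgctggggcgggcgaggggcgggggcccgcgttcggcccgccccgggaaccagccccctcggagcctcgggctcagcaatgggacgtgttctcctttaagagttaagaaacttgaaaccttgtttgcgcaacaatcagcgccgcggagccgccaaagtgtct
Eng, chr2:32646345-32646594, forward strand: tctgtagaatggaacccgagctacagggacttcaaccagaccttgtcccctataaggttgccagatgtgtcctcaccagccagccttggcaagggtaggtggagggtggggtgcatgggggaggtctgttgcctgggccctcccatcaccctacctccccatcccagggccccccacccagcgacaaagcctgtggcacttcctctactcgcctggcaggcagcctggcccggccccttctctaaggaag
In Id2 the motif began 231 bases before the start. A match is a description of these windows only, and the absence of one says nothing about the factors. Of the 3 members with the motif, Bmpr2 had 1 count and could not be followed over the clusters. Id2 was highest in b2 and Smad5 in c4, on 212 and 192 counts, and the Smad5 clusters overlapped their neighbours in order.

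The 3 HE populations, each the early and late cluster together, were compared to ask how the pathway differs by origin. Early cells were 29 of 49 in HE-AGM, 23 of 52 in HE-YSA and 25 of 49 in HE-YSP. The clusters were not weighted equally, so this mix enters every ratio of populations. It matters most for members that differ between early and late HE, such as Acvrl1, whose ratio to HE-YSA is near 2-fold. The part of the mix was not tested. The receptor Acvrl1 and both inhibitory SMADs were higher in HE-AGM than in HE-YSA, while Eng and the Id genes differed by less than 2-fold in all 3 comparisons. Smad7 was at 19.8 CPM (15.3 to 25.2) in HE-AGM, 3.15 (1.16 to 6.85) in HE-YSA and 0 of 1671886 counts in HE-YSP. In HE-AGM it was 6.30-fold higher than in HE-YSA (log2 2.65, 1.46 to 4.15). With HE-YSP set at the floor of 3 counts, it was 11.05-fold higher there than in HE-YSP, and the interval began at log2 3.13. Smad6 was at 41.2, 11.02 and 5.98 CPM, 3.73-fold higher in HE-AGM than in HE-YSA (log2 1.90, 1.23 to 2.64) and 6.88-fold higher than in HE-YSP (log2 2.78, 1.86 to 3.87), higher in each run in both. Acvrl1 was at 38.2, 16.8 and 22.7 CPM, 2.27-fold higher than in HE-YSA (log2 1.18, 0.61 to 1.79), with run values of 0.43, 2.56 and 2.64, and 1.68-fold higher than in HE-YSP. Past 2-fold were 3 of the 10 members higher and 0 lower in HE-AGM over HE-YSA, where 27.9% of all genes with at least 100 summed counts were higher and 12.9% lower. Of the 7 members among those genes 2 were higher, a share near this background. In run 1 alone, Smad5 (log2 -1.01) and Id2 (log2 -1.14) were past 2-fold lower and Smad7 alone was higher, and in run 2 Id1 (log2 -1.18) was lower. Against HE-YSP 2 members were higher and 0 lower (background 29.7% and 14.3%), and 0 were higher or lower in HE-YSA over HE-YSP (10.7% and 8.26%). Among the 7 members with at least 100 counts these were 1 and 0, and 0 and 0. Against HE-YSP, too, Smad5 (log2 -1.09) and Id2 (log2 -1.81) were past 2-fold lower in run 1. The median log2 ratio of the 7 members was 0.22, 0.30 and 0.46 in these comparisons, beside 0.19, 0.23 and 0.00 over all genes.

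Id1 and Id2 differed by smaller amounts. Id1 was at 192 CPM (172 to 212) in HE-YSA, 122.8 (111 to 135) in HE-AGM and 99.9 (85.3 to 116) in HE-YSP, and was 1.92-fold higher in HE-YSA than in HE-YSP (log2 0.94, 0.67 to 1.21), with positive run values of 0.88, 0.31 and 1.71. It was 1.56-fold lower in HE-AGM than in HE-YSA, in each run. Id2 was at 40.1 CPM (31.1 to 50.9) in HE-YSP against 25.5 in HE-AGM and 24.1 in HE-YSA, but the runs differed in direction. Id3 was at 455, 392 and 410.3 CPM and Eng at 176, 210 and 153 CPM in HE-AGM, HE-YSA and HE-YSP. For Id3 the run values of the 3 comparisons ran from -0.38 to 0.69 on the log2 scale and took both signs in each.

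The other genes of the pathway, in 6 lists of ligands, receptors, SMADs, modulators, targets and bHLH partners of the ID proteins, were counted in the same comparisons. Of 30 such genes with at least 100 summed counts, 11 were higher and 1 lower past 2-fold in HE-AGM over HE-YSA, 20 higher and 1 lower in HE-AGM over HE-YSP, and 12 higher and 1 lower in HE-YSA over HE-YSP. The share of all genes higher past 2-fold was 27.9%, 29.7% and 10.7% in these comparisons. The median log2 ratio of the 30 genes was 0.69, 1.73 and 0.57. None of the 15 ligand genes reached 100 counts. Of 4 receptors, Acvr1b, an activin type I receptor, had 88 counts for HE-AGM, 11 for HE-YSA and 7 for HE-YSP, and Acvr2b, a type II receptor, had 93, 34 and 6. Of 3 SMADs, Smad3 of the TGF-beta branch was 4.17-fold higher in HE-AGM than in HE-YSA. Among 11 modulators, 6 were higher and 1 lower in HE-AGM over HE-YSA, and 7 higher and 1 lower in HE-AGM over HE-YSP. Skil, which encodes the SMAD co-repressor SnoN, had 341, 28 and 0 counts in the same order, and Ltbp1, a latent TGF-beta binding protein, had 307, 43 and 2. Ltbp4 had 109, 11 and 0 counts, and Fstl1, a secreted follistatin-like protein, was at 381, 168 and 84.9 CPM.

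The genes of the target list, which does not hold the members Id1, Id2 and Id3, were mostly lower in HE-YSP than in the other HE populations. Id1, Id2 and Id3 themselves differed by less than 2-fold in these comparisons. Of the 7 listed genes with at least 100 counts, 6 were higher in HE-AGM over HE-YSP (background 29.7%) and 6 in HE-YSA over HE-YSP (10.7%). In HE-AGM over HE-YSA 0 passed 2-fold in either direction (27.9% higher and 12.9% lower). Gja5, which encodes the arterial connexin 40, was at 273, 244 and 5.98 CPM in HE-AGM, HE-YSA and HE-YSP. Hey1, a Notch and ALK1 target, had 345, 144 and 0 counts, Tmem100, a target of ALK1, 87, 39 and 0, and Hes1 149, 52 and 3. Gata2, a hematopoietic regulator, was at 102, 53.0 and 11.96 CPM, and Cdkn1a had 24, 27 and 3 counts. Several of these genes are also arterial genes, and the arterial marker Vwf, the single gene of its list, moved with them. Its part in the result was not tested. Of 5 bHLH partners, Tal1, a regulator of blood and endothelium that pairs with E proteins, had 160, 5 and 6 counts in the same order, which is 18.3-fold higher in HE-AGM than in HE-YSA (log2 4.19, 2.94 to 5.84).

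**Figure D4:**
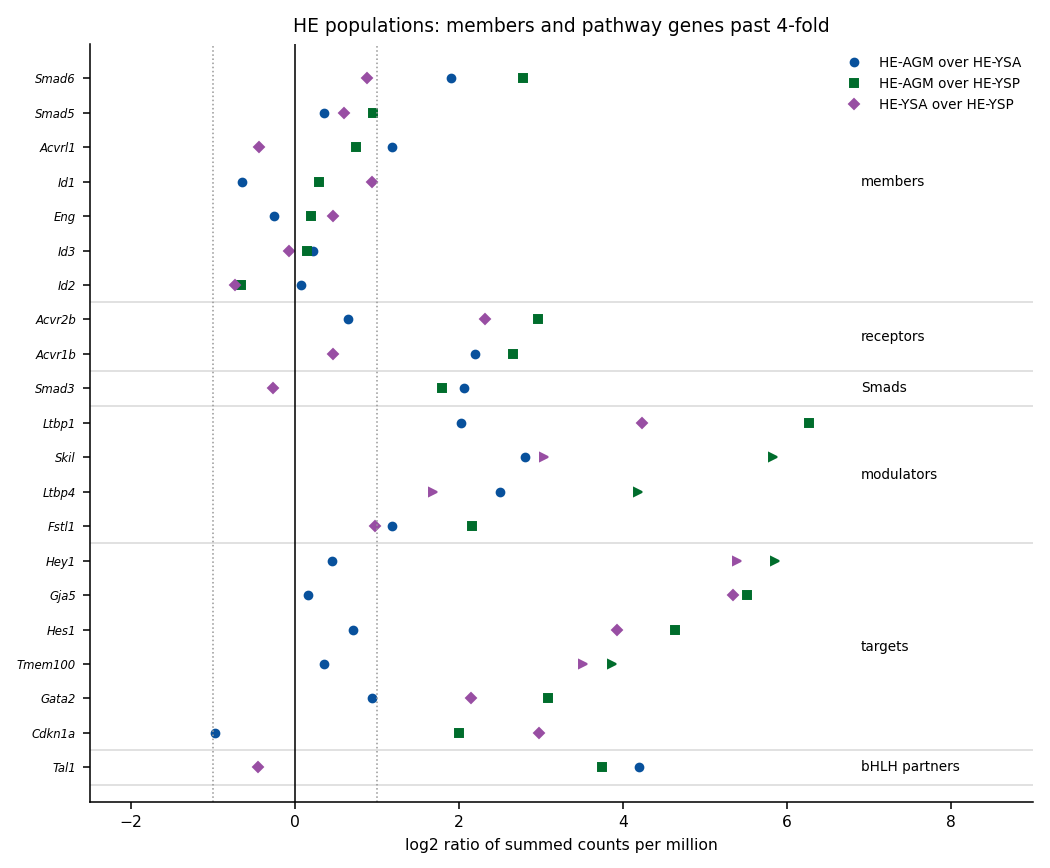
Log2 ratios of summed CPM (x axis) between the 3 HE populations. Genes (y axis) are the 7 members with at least 100 counts and pathway genes past 4-fold in at least 1 comparison. Triangles mark ratios where HE-YSP had no count and was set at the floor of 3 counts, and dotted lines mark 2-fold. Members other than Smad6 and Acvrl1 lie within 2-fold in all 3 comparisons, while Hey1, Gja5, Hes1 and Tmem100 lie above 3 against HE-YSP.

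Late HE was set against early HE in each line to follow the members as HE matures. In the AGM, 23 of 29 c3 cells and all 20 c4 cells came from the same cDNA project. Most c4 cells and all c5 cells shared a cDNA plate, while many c3 cells were on another. Plate and maturity are thus partly confounded in c4 over c3, and the nanopore runs do not separate them. Id3 was lower in late HE in each of the 3 lines, and so was Acvrl1 over the summed runs. Id3 was 2.28-fold lower in c4 than in c3 (log2 -1.19, -1.37 to -1.02), 3.03-fold lower in a2 than in a1 (log2 -1.60, -1.83 to -1.37) and 1.89-fold lower in b3 than in b2 (log2 -0.92, -1.15 to -0.69), with all 9 run values negative. Acvrl1 was 6.87-fold lower in c4 (log2 -2.78, -3.77 to -1.92), 2.42-fold lower in a2 (log2 -1.27, -2.47 to -0.16) and 6.37-fold lower in b3 (log2 -2.67, -4.38 to -1.30). In the a pair this rested on run 1, with 19 counts in a1 and 6 in a2. Run 2 had 2 counts in each, run 3 had 0 in a1 and 3 in a2, and with E10.5 cells alone the log2 ratio was -0.52, short of 2-fold. Smad6 had 1 count in a2 against 20 in a1 (ratio log2 -4.66, -10.04 to -2.02), 45 in c4 against 92 in c3, and 2 in b3 against 8 in b2. Eng was 1.58-fold and 1.52-fold lower in c4 and b3, and at 209 against 211 CPM in a2 and a1 (log2 -0.01, -0.30 to 0.28). Id1 was 2.79-fold lower in a2 than in a1 (log2 -1.48, -1.81 to -1.16), lower in each run but by 0.06 only in run 2. In c4 against c3 it was 1.32-fold higher (log2 0.40, 0.11 to 0.69), although 2 of 3 runs gave values below 0, and run 3 alone placed it above.

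Over the 10 members, 1 was higher and 3 lower past 2-fold in c4 over c3 (background 7.46% and 13.1%), 1 higher and 5 lower in a2 over a1 (13.1% and 13.2%), and 1 higher and 4 lower in b3 over b2 (16.4% and 14.5%). The background holds genes with at least 100 counts, and of the 7 members among them 1 was higher and 2 lower, 1 and 4, and 0 and 4. The lower members were Acvrl1, Smad1 and Id3 in c4, these and Smad6 and Id1 in a2, and Acvrl1, Smad5, Smad6 and Id2 in b3. Of these, Smad1 in a2 rested on 3 counts from 1 cell against 8 (log2 -1.76, -4.31 to 0.30) and Smad6 in b3 on 2 against 8 (log2 -1.95, -5.22 to 0.38), and both intervals include 0. The higher member was Smad5 in c4 and a2 and Smad1, with 7 counts in 1 cell against 1 (log2 2.86, -0.10 to 8.35), in b3. The median log2 ratio of the 7 well-counted members was -0.66, -1.27 and -1.29, beside -0.02, 0.04 and 0.10 over all genes. The endothelial marker list moved the same way, 2.08-fold, 1.79-fold and 1.96-fold lower in c4, a2 and b3, and the blood marker list was 1.61-fold, 1.88-fold and 2.263-fold higher. Of 6 blood genes with at least 100 counts, 3, 3 and 4 were higher and 1, 0 and 0 lower past 2-fold. The part of both lists in the members' differences was not tested. Among the 30 other pathway genes, 11, 11 and 7 were lower past 2-fold in late HE and 1, 1 and 5 higher. A ratio could be formed for 30, 30 and 23 of them.

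The step from late HE to c5, p1 and p2 was examined next, to follow the members into cells with blood identity. Eng and Id3 were lower than in the matching late HE in each of the 3 comparisons, in every run. Id3 was 12.3-fold lower in c5 than in c4 (log2 -3.62, -4.19 to -3.10), 4.38-fold lower in p1 than in a2 (log2 -2.13, -2.72 to -1.58) and 6.09-fold lower in p2 than in b3 (log2 -2.61, -3.17 to -2.08). Eng was 2.37-fold, 2.75-fold and 3.05-fold lower. With the highest Id3 cell of each group left out, a choice made after the values were seen, the log2 ratio of c5 over c4 was -5.85. Id2 had no count in p1 and p2. With the progenitor cluster set at the floor of 3 counts, it was 5.96-fold and 5.65-fold lower than in a2 and b3. The intervals of these ratios ended at log2 -2.18 and -2.06. Smad6 was 8.14-fold lower in c5 than in c4 (log2 -3.03, -4.55 to -1.79). Smad5, with no count in p1, was 6.37-fold lower than in a2 at the same floor, with an interval ending at log2 -2.29.

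Id1 went another way in the YS. It was 4.41-fold lower in c5 than in c4 (log2 -2.14, -2.62 to -1.68), lower in each run with values of -4.76, -0.25 and -2.53. In p1 against a2 it was at 83.8 and 107 CPM (log2 -0.35, -0.85 to 0.12), and in p2 against b3 at 128 and 70.7 CPM, 1.82-fold higher (log2 0.86, 0.37 to 1.36). The run values in p2 over b3 were -0.33, -0.17 and 2.54, so the higher level came from run 3. With YS cells of E10.5 alone the log2 ratio of Id1 in p2 over b3 was -0.93, the opposite direction.

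Past 2-fold, 0 of the 10 members were higher and 5 lower in c5 over c4 (background 8.59% and 14.3%), 0 higher and 6 lower in p1 over a2 (12.1% and 18.9%), and 1 higher and 3 lower in p2 over b3 (10.9% and 16.3%). Of the 7 members with at least 100 counts, 0 were higher and 5 lower, 0 and 5, and 1 and 3. The lower members were Eng, Acvrl1, Smad6, Id1 and Id3 in c5, Eng, Acvrl1, Smad5, Smad7, Id2 and Id3 in p1, and Eng, Id2 and Id3 in p2. The call of Smad7 rested on 1 count against 4 (log2 -1.30, -6.92 to 2.04), and the higher member in p2, Smad5, on 8 counts against 3 (log2 1.58, -0.48 to 4.13). The median of the members was -2.12, -1.79 and -1.09 on the log2 scale, beside -0.06, -0.03 and -0.01 over all genes. A group without counts was set at the floor for these values. Over the same steps the endothelial marker list was 2.94-fold, 1.89-fold and 2.43-fold lower and the blood list 1.60-fold, 1.72-fold and 2.24-fold higher. Coro1a held 640 of the 1153 CPM of the blood list in c5, 780 of 1062 in p1 and 666 of 911 in p2. Of 6 blood genes with at least 100 counts, 2, 3 and 2 were higher and 0, 1 and 0 lower past 2-fold. The part of both lists was not tested.

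Of the 30 other pathway genes, 29, 28 and 21 had enough counts for a ratio in c5 over c4, p1 over a2 and p2 over b3. Past 2-fold, 2 were higher and 7 lower in c5 over c4 (background 8.59% and 14.3%). In p1 over a2 these were 1 and 14 (12.1% and 18.9%), and in p2 over b3 5 and 6 (10.9% and 16.3%). The median log2 ratio of the genes with a ratio was -0.56, -0.85 and -0.04. In c5, Cdkn1a, a cell-cycle inhibitor, was 6.22-fold higher (54 against 8 counts) and Tgif1, a repressor of SMAD-driven transcription, 4.45-fold higher, while Fstl1 was 6.04-fold and Skil 7.38-fold lower, Hey1 had 6 counts against 71 and Gja5 0 against 37. In p1, Tgfbr3, the co-receptor betaglycan, was 4.33-fold higher (16 against 6 counts). Lower there were Fstl1 (9.32-fold), Gata2 (4.55-fold), Tcf3 (4.06-fold), Hes1 (1 against 19 counts) and Acvr1b (1 against 7, interval including 0), and Gja5, Smad4 and Acvr2b had no count against 75, 25 and 23. In p2, Acvr1b was 4.71-fold higher (21 against 5 counts) and Cdkn1a 4.11-fold higher (11 against 3), while Tgif2 had 3 counts against 19 and Ppm1a, a phosphatase, 1.33 against 18.

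**Figure D5:**
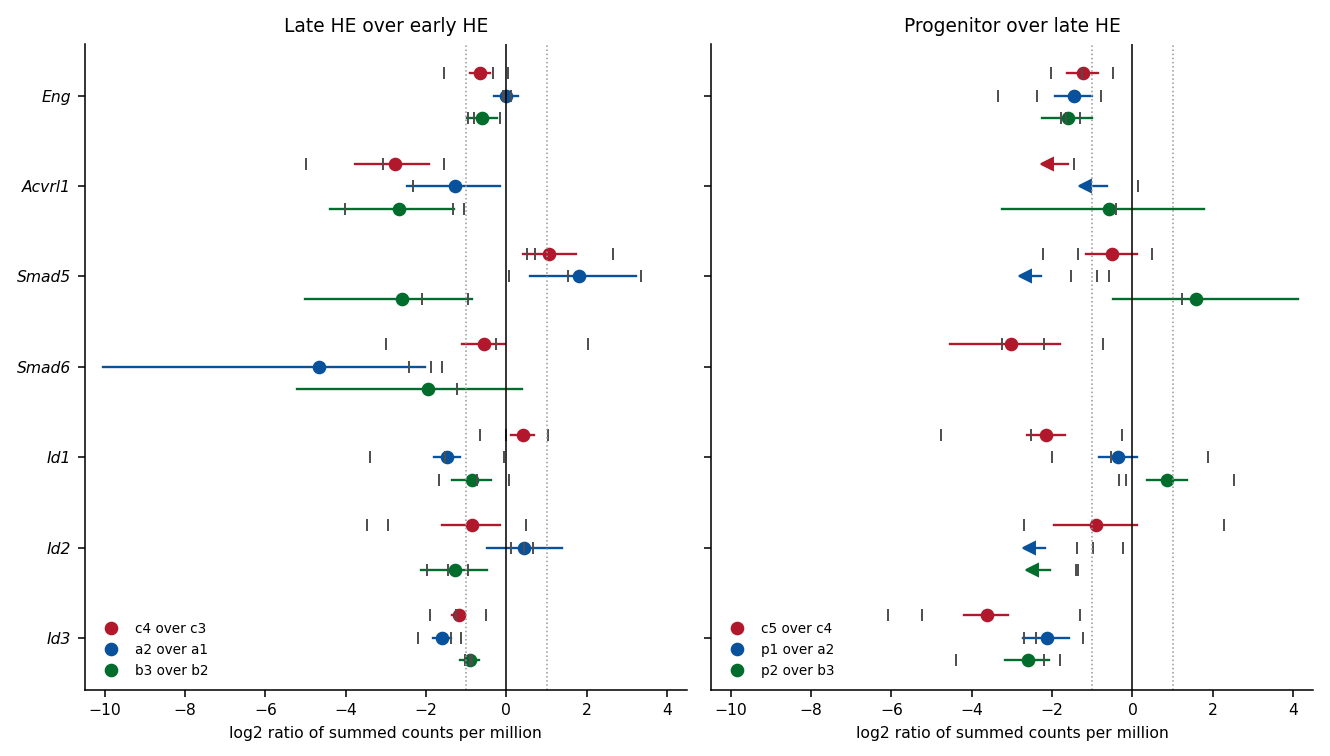
Log2 ratios (x axes) of the 7 members with at least 100 counts (y axis). Late over early HE is on the left, and c5, p1 and p2 over late HE on the right. Lines are 95% counting intervals and ticks are run values. A group or run with no count is set at the floor of 3 counts, with triangles for such groups. Id3 lies left of 0 in all 6 comparisons, Eng in all 6 with a2 over a1 at -0.01, and Smad5, Id1 and Id2 lie on both sides.

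Stage could be separated in the YS alone. In HE-YSA, Id3 was at 486 CPM (426 to 552) in 14 cells of E9.5 and 339 (309 to 371) in 35 cells of E10.5, and Eng at 130 (100.1 to 167) and 240 (214 to 267), with the Eng level of each run higher at E10.5 than in any run at E9.5. Id1 was at 184 CPM (148 to 226) and 181 (159 to 205) at these stages. In HE-YSP, Id3 was at 311 CPM (262 to 367) in 16 cells of E9.0, 517 (448 to 594) in 13 of E9.5 and 415 (372 to 461) in 20 of E10.5, and Eng at 161, 169 and 140 CPM with overlapping intervals. Of the E9.5 Eng counts in HE-YSP, 34 of 65 came from 1 cell. The share of early and late clusters differs between stages, so stage and maturity are not separated by these values.

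For each member with at least 100 counts, the genes whose levels ran most alike over the 9 clusters were sought among 3259 to 3260 genes with at least 500 counts, by Pearson's r of log2(CPM + 10). The values are a description, and their points share the cells and libraries of each cluster. Eng ran most like the endothelial genes Ecscr (r = 0.98) and Pecam1 (r = 0.97). Id3 ran most like Krtcap2 (0.98) and Plvap (0.97), a gene of endothelial fenestrae, and Id1 most like Tpm1 (0.95) and Hsbp1 (0.90). Acvrl1 was paired with Sar1a and Adam15 (0.94 each), Smad6 with Pik3c2b (0.96) and Tnfaip2 (0.95), Smad5 with Ncor1 (0.90) and Hmgb3 (0.89), and Id2 with Capn2 and Nrep (0.92 each).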

How the data were processed

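The estimated counts deposited by the authors were made from nanopore reads by trimming, removal of chimeric reads, alignment to GENCODE transcripts with Minimap2 2.26 and quantification with NanoCount, which shares reads among transcripts. They are not normalized. In the TPM table, also deposited, each estimate is divided by the cell's total without correction for length. The methods give a GENCODE release for these reads but no assembly. Transcripts were therefore matched by identifier and length to GENCODE M21 (GRCm38), and coordinates are from M21 or RefSeq. The authors' size factors and comparisons are not in the deposited values.

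Cells below 17595 counts (median minus 1 scaled median absolute deviation, after the methods) were left out. Counts were summed per gene symbol, and every summed value of the 10 members was whole in every cell. Ratios are of summed CPM. A group without counts was set at 3, and no ratio was formed when neither group exceeded 3. Intervals are exact Poisson, conditional binomial or Clopper-Pearson intervals at 95%. A call means at least 2-fold, and the background is all genes with at least 100 summed counts. Isoform shares were compared with at least 20 counts in each group. Shares of cells were also computed after thinning to 15000 counts, by the hypergeometric expectation. Genes that are no members were named where they had at least 100 counts and differed at least 4-fold between HE populations or between a progenitor and its late HE, and the 2 most alike genes are given for each member. The members and all lists were chosen with earlier results of these data known. The calculation of ratios and their intervals was tested on simulated Poisson counts of pooled cells. These held no variation between cells, embryos or plates, so the simulation does not cover such variation. Python 3.11.15, numpy 2.4.6, pandas 2.3.3, scipy 1.17.1, matplotlib 3.10.9, R 4.3.3 and DESeq2 1.42.0 (size factors only) were used. Alternatives covered the cell filter, scaling, TPM, runs, mismatched cells, depth, stage, the total and each member's highest cell, the last added after the data were seen.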

Additional observations from a re-analysis of the deposited data

Results flagged for a closer look

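Id2 moved in opposite directions from early to late HE in the pair of YS lines. It was higher in a2 than in a1 (29 against 17 counts, log2 ratio 0.43) and lower in b3 than in b2 (19 against 48 counts, log2 ratio -1.29), with the same sign in each of the 3 runs within a line. The interval of the a2 over a1 ratio, -0.48 to 1.39, includes 0, and among YS cells of E10.5 alone it was -0.41. The difference between the lines was not tested.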

How the results depend on the processing

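No paired analysis was possible because each result comes from no test. Of 829 log2 ratios of members under the alternatives, 582 kept within the counting interval, 245 moved and 2 of those past 2-fold changed sign: Acvrl1 in p1 over a2 in run 1 alone (0.14, with p1 set at the floor) and Smad7 there with cells of 30000 to 60000 counts (0.60). The cause was not tested. The number of members past 2-fold in HE-AGM over HE-YSA, 3 (3 higher), was 5 in run 2 alone (4 higher, 1 lower), and in run 1 it was 1 higher and 2 lower. In HE-AGM over HE-YSP, 2, it was 4 with DESeq2 size factors, 4 in run 1 (2 higher, 2 lower), 5 in run 2, 6 with cells of 30000 to 60000 counts (4 higher, 2 lower) and 4 with each member's highest cell left out. In HE-YSA over HE-YSP, 0, it was 1, 2 and 4 in runs 1, 2 and 3 (2 higher and 2 lower in run 3), 3 with cells of 30000 to 60000 counts, and 2 both at E10.5 alone and without the highest cells. In c4 over c3 the total of 4 was 1 higher and 3 lower, but 0 and 4 with DESeq2 size factors, TPM or run 2, and 0 and 5 with cells of 30000 to 60000 counts. In a2 over a1, 6, it was 3 in run 2 (1 higher, 2 lower). In b3 over b2, 5, it was 2 in run 1, 3 in run 3 and 3 with cells of 30000 to 60000 counts. In p1 over a2, 6, it was 3 in each run (1 higher and 2 lower in run 1, all lower in the others), and in p2 over b3, 4, it was 2 in run 2 and 2 at E10.5 alone. A single run holds fewer cells. Members with an isoform difference over 0.1 numbered 1, 2 and 1 in the HE comparisons and 0 in each with at least 50 counts or in run 2. In HE-AGM over HE-YSP they numbered 1 with whole-number estimates, 1 in run 1 and 0 in run 3, and in HE-YSA over HE-YSP 0 in run 1. DESeq2 size factors moved the median of all genes from 0.19 to 0.42 in HE-AGM over HE-YSA, with 33.6% higher and 8.91% lower, and from 0.23 to 0.48 in HE-AGM over HE-YSP. The depth leaves Bmpr2, Smad1 and Smad7 at few counts in the YS.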
